A study of Nicotiana tabacum with 6 samples.

Results

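The germin-like proteins were followed locus by locus in tobacco explants cultured with 0.5 or 0.1 mg/L NAA, the synthetic auxin naphthaleneacetic acid. The members were the loci whose protein description holds the words germin-like, germin subfamily, auxin-binding protein ABP19 or nectarin, and there were 28 of them among the 39825 loci of the expression table. The family was chosen by the FPKM difference between the treatments, because its subfamily 1 member 13 locus had the largest fall of all loci tested. The changes of its members in that contrast are therefore a description, and so are the counts below.

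RNA was taken from explants after 2 weeks on the medium, in 3 libraries with 0.5 mg/L NAA and 3 libraries with 0.1 mg/L NAA. The explants of the study are pieces of fully extended cotyledons, and their batch was shared with a chromatin accessibility experiment. How the replicates were drawn from that batch is not described, so the spread between libraries may be partly technical. The study's regeneration media also held the cytokinin 6-benzyladenine, the labels of these libraries name no additive but NAA, and whether these explants had met *Agrobacterium* is not stated. The labels name the plant *Nicotiana tabacum*, the study's methods *Nicotiana benthamiana*, and the locus identifiers belong to the *N. benthamiana* genome Niben261. Levels are FPKM, fragments per kilobase of gene and per unit of sequenced fragments, so that levels of different loci can be set side by side.

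Germin-like proteins belong to the cupin superfamily, proteins built around a small barrel that holds a metal, mostly manganese. They are secreted into the cell wall. The name comes from wheat germin, an oxalate oxidase that releases hydrogen peroxide, and several plant members act instead as superoxide dismutases, which also make hydrogen peroxide from superoxide. Nectarin-1 is the member first found in the nectar of ornamental tobacco, where it is a manganese superoxide dismutase. ABP19 was isolated from peach as a protein that binds auxin. The names germin-like protein 2-1, 2-3 and 11-1 follow the rice system, in which the first number is a rice chromosome and not a subfamily. Nectarin-3 shares only the word, since it is a carbonic anhydrase, and the table's pathway column gives it that name too.

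The sums of FPKM over all loci ranged from 986722 to 1015420 in the 0.5 mg/L libraries and from 1140994 to 1155639 in the 0.1 mg/L libraries. The table holds no read counts. The steps of low values put the depth of the libraries between 0.739 and 1.04 of that of replicate 1 at 0.1 mg/L, and replicate 3 at 0.1 mg/L had the lowest depth. Among lists of marker genes, 33 of 38 chlorophyll a-b binding loci tested were lower at 0.5 mg/L NAA, with summed levels of 1479 to 1732 FPKM in the 0.5 mg/L libraries and 4878 to 5533 FPKM in the 0.1 mg/L libraries. RuBisCO small chain loci summed to 2119, 1245 and 1437 FPKM in replicates 1, 2 and 3 at 0.5 mg/L and to 2754 to 2909 FPKM at 0.1 mg/L NAA, with 1 of 8 lower. Of the other lists, 1 of 2 histone H4 loci was lower (340 to 446 FPKM at 0.5 mg/L, 781 to 808 FPKM at 0.1 mg/L), 9 of 39 xylem loci (201 to 267 against 266 to 289 FPKM) and 2 of 11 knotted-type meristem loci (178 to 205 against 177 to 183 FPKM). Lower in these counts means past both thresholds given below, as 2.62% of all loci tested were. On the adjusted p alone 21.7% of all loci tested were higher and 20.2% lower. On it 9 of the 39 xylem loci were higher and 11 lower, and 4 of the 11 meristem loci were higher and 4 lower. None of the marker loci was at 0 in all 6 libraries. The part of these marker differences in the results below was not tested. In such bulk tissue fewer cells of a type and less RNA per cell cannot be told apart.

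Of the 28 members, 17 had a mean of at least 0.5 FPKM over the 6 libraries and were tested, and 11 were not. Loci were called when the adjusted p was under 0.05 and the log2 fold change at least 1 in size (limma on log2(FPKM + 1), adjusted over all loci). Of the 17 members, 4 were called lower at 0.5 mg/L NAA and 0 higher. Of all 32443 loci tested, 5.86% were called, 2.62% lower and 3.24% higher. These were 851 loci lower and 1051 higher, a split that became 519 lower and 1640 higher, with 3 members lower, when the libraries were rescaled to the same total. On the p threshold alone 8 members were lower and 1 was higher, where 41.9% of all loci passed, 20.2% lower and 21.7% higher. In 11 members the treatments did not overlap, 10 of them with all 0.5 mg/L libraries below, whereas 54.7% of all loci did not overlap, 25.9% in that direction and 28.8% in the other. These counts come from the contrast that chose the family, so nothing is read from them. The median log2 fold change was -0.42 over the 17 members and 0.02 over all loci tested. With replicate 1 at 0.5 mg/L left out the median of the members was -0.80, and over all 28 with no filter it was -0.19. Of the 17, 2 passed the filter only through the 0.1 mg/L libraries (a nectarin-1-like and a subfamily 2 member 1 locus, both on chromosome 10).

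**Figure D1:**
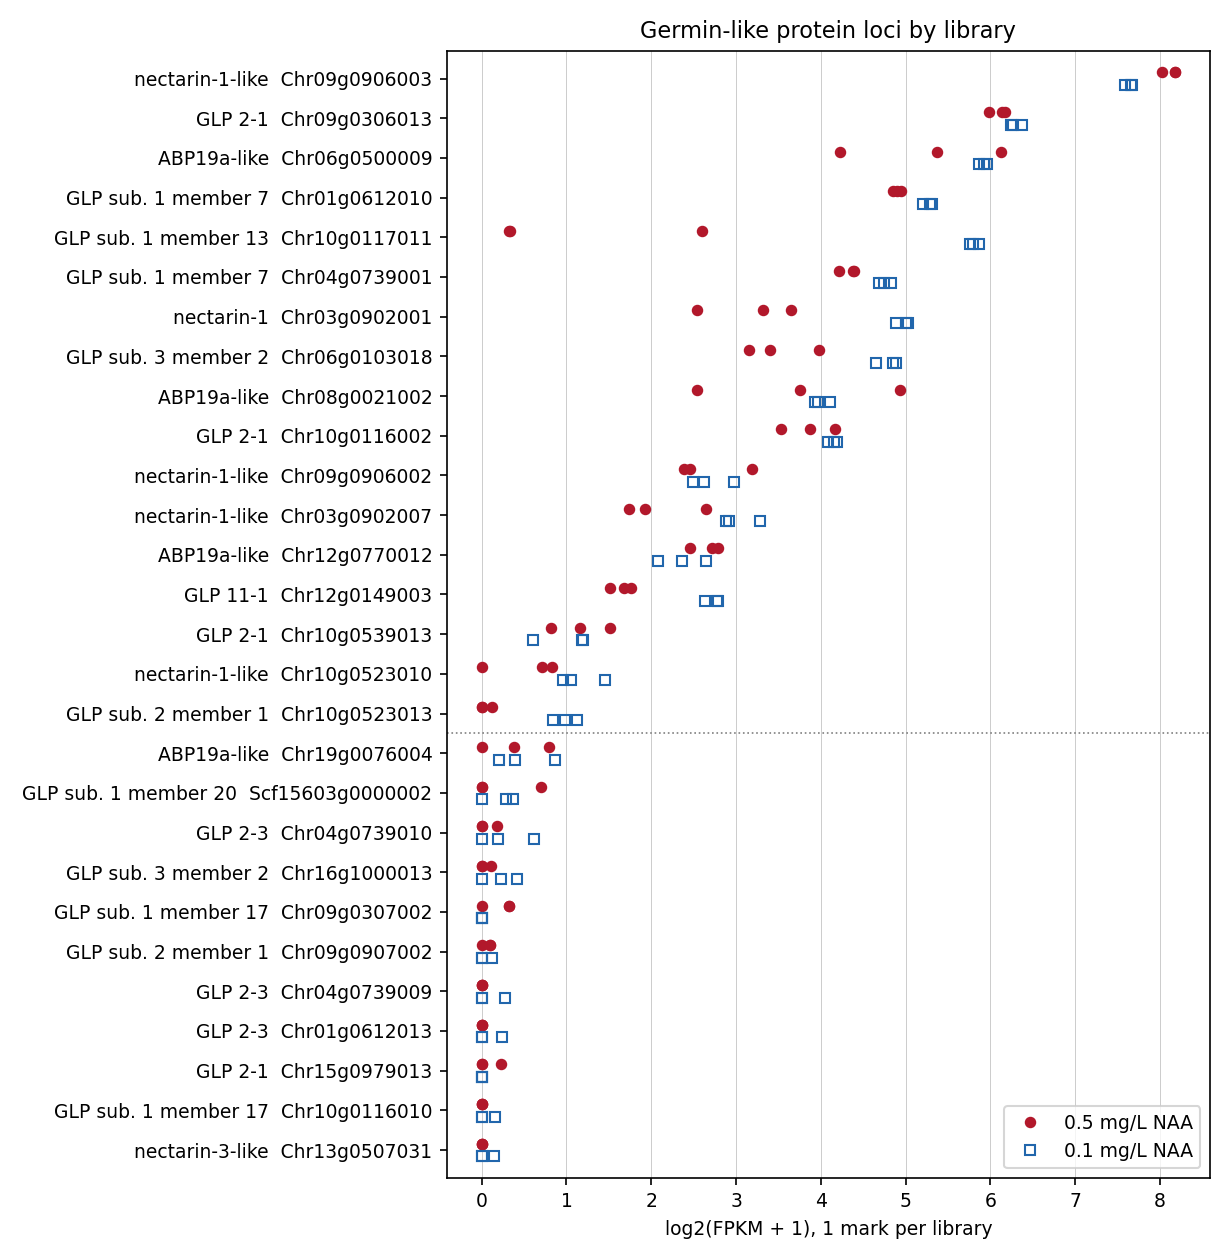
Level of each of the 28 members as log2(FPKM + 1), with filled circles for the 3 libraries at 0.5 mg/L NAA and open squares for the 3 at 0.1 mg/L NAA. Loci (GLP, germin-like protein) run from the highest mean at the top to the lowest, and the 11 below the dotted line had a mean under 0.5 FPKM; the marks of the subfamily 1 member 13 locus lie furthest apart.

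The locus that led to the family, subfamily 1 member 13 on chromosome 10 (Niben261Chr10g0117011), had 5.08, 0.26 and 0.25 FPKM in replicates 1, 2 and 3 at 0.5 mg/L NAA, against 53.1, 54.3 and 57.1 FPKM at 0.1 mg/L NAA. The 0.1 mg/L libraries were close together, while replicate 1 at 0.5 mg/L stood 20.3 times above the lowest library of its treatment and still 10.4 times below the lowest 0.1 mg/L library. The means were 1.86 ± 2.79 FPKM at 0.5 mg/L and 54.8 ± 2.07 FPKM at 0.1 mg/L NAA (SD, n = 3 each), a 29.4-fold difference that becomes 215-fold with replicate 1 at 0.5 mg/L left out. On the log2 scale the fitted difference was -4.72 (standard error 0.56), the lowest of all loci tested. Without that replicate it was -5.47. As the value that chose the family, it carries no test here.

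On chromosome 10 this locus is the last of 3 germin-like loci that follow each other in the table. The germin-like protein 2-1 locus 2 rows before it (Niben261Chr10g0116002) had 13.6, 17.0 and 10.6 FPKM at 0.5 mg/L and 17.3, 16.8 and 15.9 FPKM at 0.1 mg/L NAA, so the treatments overlapped, with a log2 fold change of -0.29 (standard error 0.15). The subfamily 1 member 17 locus between them (Niben261Chr10g0116010) was listed at 0 in 5 libraries and at 0.12 FPKM in replicate 1 at 0.1 mg/L. Thus the strong difference stood beside a neighbour whose treatments overlapped and a neighbour that was almost silent. The other tested loci within 5 rows on either side were not called. Before it, a phosphatase PP1-like locus had a log2 fold change of -0.38 and an activating signal cointegrator 1 locus -0.27. After it, an uncharacterized protein locus had 0.60, an electron transfer flavoprotein locus -0.10 and a transcription factor bHLH104 locus -0.25. On the p threshold alone the phosphatase and bHLH104 loci were lower and the uncharacterized protein locus was higher.

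**Figure D2:**
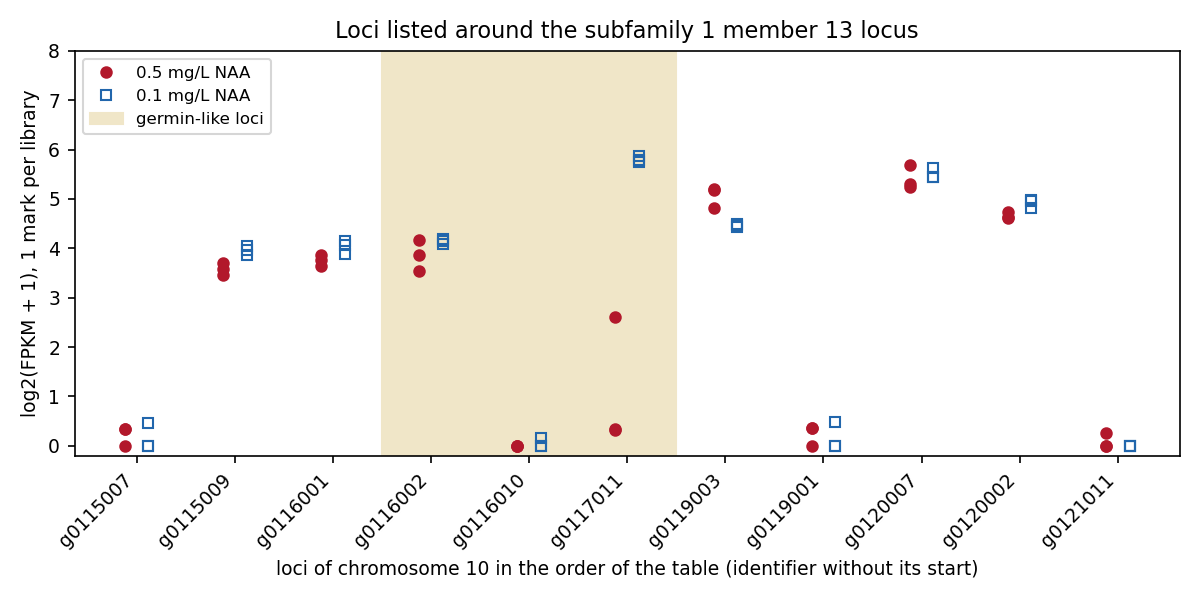
Level as log2(FPKM + 1) of the 11 loci listed around the subfamily 1 member 13 locus on chromosome 10, in the order of the table, with filled circles for 0.5 mg/L and open squares for 0.1 mg/L NAA and the 3 germin-like loci shaded. Only at g0117011 do the treatments lie far apart (0.25 to 5.08 against 53.1 to 57.1 FPKM).

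A run with a like make-up is listed on chromosome 9, with a germin-like protein 2-1 locus (Niben261Chr09g0306013) and a subfamily 1 member 17 locus (Niben261Chr09g0307002) and no member 13. The 2-1 locus was the most abundant member after a nectarin-1-like locus, with 69.4, 71.0 and 62.1 FPKM at 0.5 mg/L and 74.9, 82.1 and 75.7 FPKM at 0.1 mg/L NAA. All its 0.5 mg/L libraries were below the 0.1 mg/L ones, but by little, with a log2 fold change of -0.20 (standard error 0.08), and it passed neither threshold. The member 17 locus was listed at 0.25, 0 and 0.25 FPKM at 0.5 mg/L and at 0 in all 0.1 mg/L libraries.

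The remaining expressed loci of subfamily 1 were a pair described as member 7, on chromosomes 1 and 4. The chromosome 1 locus (Niben261Chr01g0612010) had 27.9, 29.8 and 28.7 FPKM at 0.5 mg/L and 37.9, 35.8 and 38.6 FPKM at 0.1 mg/L NAA. The chromosome 4 locus (Niben261Chr04g0739001) had 19.9, 17.5 and 19.9 FPKM at 0.5 mg/L and 24.8, 25.8 and 27.3 FPKM at 0.1 mg/L NAA. In both the treatments did not overlap, and the log2 fold changes of -0.37 (standard error 0.07) and -0.42 (standard error 0.08) passed the p threshold and not the fold threshold. Both loci match the same pepper protein best, so reads could have been shared between them. Each is listed beside loci described as germin-like protein 2-3, 1 on chromosome 1 and 2 on chromosome 4, all of which were nearly silent, with 0.54 FPKM as the highest value. Summed over its 6 loci, subfamily 1 had 50.1 ± 2.76 FPKM at 0.5 mg/L and 118 ± 4.20 FPKM at 0.1 mg/L NAA (SD, n = 3 each), most of the gap coming from the member 13 locus.

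Nectarin-1 loci made up the largest share of the family. The nectarin-1-like locus Niben261Chr09g0906003 on chromosome 9 was the most abundant member and had 288, 259 and 288 FPKM at 0.5 mg/L NAA, against 201, 202 and 190 FPKM at 0.1 mg/L NAA. Every 0.5 mg/L library was above every 0.1 mg/L library, and the log2 fold change of 0.49 (standard error 0.07) passed the p threshold and not the fold threshold. It was the sole member above on the p threshold. It held 55.0% of the summed FPKM of the family at 0.5 mg/L NAA and 34.8% at 0.1 mg/L NAA.

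Other nectarin-1 loci differed from it. The locus described as nectarin-1 on chromosome 3 (Niben261Chr03g0902001) had 11.5, 8.95 and 4.80 FPKM at 0.5 mg/L and 31.1, 31.6 and 28.6 FPKM at 0.1 mg/L NAA. It fell by 1.81 on the log2 scale (standard error 0.25), was called, and varied more among the 0.5 mg/L libraries, where replicate 1 was highest and replicate 3 lowest. The nectarin-1-like locus listed next to it (Niben261Chr03g0902007) had 5.24, 2.80 and 2.33 FPKM at 0.5 mg/L and 8.73, 6.38 and 6.53 FPKM at 0.1 mg/L NAA. Its treatments did not overlap either, and its log2 fold change of -0.93 (standard error 0.24) stopped short of the fold threshold. With replicate 1 at 0.5 mg/L left out it was -1.20 and was called, and with replicate 3 at 0.5 mg/L (-0.74) or replicate 1 at 0.1 mg/L NAA (-0.80) left out it did not pass the p threshold either.

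The second nectarin-1-like locus on chromosome 9 (Niben261Chr09g0906002), listed next to the most abundant member, was far weaker, with 4.48, 4.23 and 8.14 FPKM at 0.5 mg/L and 6.84, 5.18 and 4.62 FPKM at 0.1 mg/L NAA. Its treatments overlapped (log2 fold change -0.02, standard error 0.23). The chromosome 10 locus (Niben261Chr10g0523010) had 0.78, 0 and 0.64 FPKM at 0.5 mg/L and 1.73, 0.94 and 1.08 FPKM at 0.1 mg/L NAA, with a log2 fold change of -0.64 (standard error 0.26) that passed neither threshold. Summed over the 5 loci, nectarin-1 had 296 ± 18.8 FPKM at 0.5 mg/L and 242 ± 9.80 FPKM at 0.1 mg/L NAA (SD, n = 3 each). The higher sum at 0.5 mg/L NAA thus stood on the chromosome 9 locus, while the locus described as nectarin-1 itself was lower.

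The ABP19a-like loci showed the widest spread within a treatment after the member 13 locus. The chromosome 6 locus (Niben261Chr06g0500009) had 68.8, 17.8 and 40.4 FPKM in replicates 1, 2 and 3 at 0.5 mg/L NAA, against 57.4, 61.4 and 59.6 FPKM at 0.1 mg/L NAA. The chromosome 8 locus (Niben261Chr08g0021002) had 29.5, 4.80 and 12.5 FPKM at 0.5 mg/L and 16.3, 14.6 and 14.2 FPKM at 0.1 mg/L NAA. In both loci replicate 1 at 0.5 mg/L lay above all 0.1 mg/L libraries and replicates 2 and 3 below them. The summed RuBisCO small chain loci given above had the same order of the 0.5 mg/L libraries. So did the xylem list, with 267, 201 and 231 FPKM in replicates 1, 2 and 3. The chlorophyll a-b binding list had another order (1732, 1614 and 1479 FPKM), as did the histone H4 and meristem lists. The part of such marker differences in the spread was not tested.

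On the log2(FPKM + 1) scale the SD among the 0.5 mg/L libraries was 0.95 for the chromosome 6 locus and 1.20 for the chromosome 8 locus. Among the 0.1 mg/L libraries the SDs were 0.05 and 0.10. Over all loci tested the median SD was 0.15 among the 0.5 mg/L libraries and 0.10 among the 0.1 mg/L libraries, and 95% of loci had an SD of at most 0.53 at 0.5 mg/L. The log2 fold changes of -0.68 (standard error 0.41) and -0.26 (standard error 0.51) passed neither threshold. With replicate 1 at 0.5 mg/L left out the chromosome 6 locus was called lower (-1.12), and with replicate 2 left out the chromosome 8 locus turned to 0.34. Both match the same *N. sylvestris* protein best, so their reads may have been shared. Another ABP19a-like locus, on chromosome 12 (Niben261Chr12g0770012), lacked this spread, with 5.55, 4.47 and 5.91 FPKM at 0.5 mg/L and 5.28, 3.23 and 4.13 FPKM at 0.1 mg/L NAA and a log2 fold change of 0.29 (standard error 0.17). The one on chromosome 19 was not tested, and its values ran from 0 to 0.82 FPKM.

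Replicate 1 was the highest of the 0.5 mg/L libraries in 11 of the 17 members tested, and in 35.6% of all loci tested. The 11 include all 4 called members, so that each had its smallest difference from the 0.1 mg/L libraries in that replicate. The SD was larger among the 0.5 mg/L than among the 0.1 mg/L libraries in 14 of the 17 members and in 65.2% of all loci tested.

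A subfamily 3 member 2 locus on chromosome 6 (Niben261Chr06g0103018) had 14.8, 9.55 and 7.86 FPKM at 0.5 mg/L and 24.1, 27.8 and 28.5 FPKM at 0.1 mg/L NAA. It fell by 1.29 on the log2 scale (standard error 0.20) and was called, with no overlap between the treatments. The other subfamily 3 member 2 locus, on chromosome 16, had at most 0.34 FPKM in any library and was not tested. The germin-like protein 11-1 locus on chromosome 12 (Niben261Chr12g0149003) had 2.40, 2.20 and 1.86 FPKM at 0.5 mg/L and 5.21, 5.82 and 5.93 FPKM at 0.1 mg/L NAA. It fell by 1.08 on the log2 scale (standard error 0.12), the called member nearest to the fold threshold, and rescaling the libraries to the same total took it to -0.92 and out of the calls.

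The member nearest to that threshold from the other side was subfamily 2 member 1 on chromosome 10 (Niben261Chr10g0523013), with 0.09, 0 and 0 FPKM at 0.5 mg/L and 0.97, 0.79 and 1.18 FPKM at 0.1 mg/L NAA. Its treatments did not overlap, and its log2 fold change of -0.94 (standard error 0.16) is small because of the pseudocount of 1. With a pseudocount of 0.1 it was -3.11. The locus entered the fit only through the 0.1 mg/L libraries, where it is high, so no call is read from it. It is listed next to the nectarin-1-like locus of chromosome 10, and a subfamily 2 member 1 locus also follows the nectarin-1-like pair of chromosome 9 (Niben261Chr09g0907002), where it had at most 0.09 FPKM. A further germin-like protein 2-1 locus on chromosome 10 (Niben261Chr10g0539013) had 1.24, 0.77 and 1.85 FPKM at 0.5 mg/L and 1.28, 1.29 and 0.52 FPKM at 0.1 mg/L NAA, with a log2 fold change of 0.17 (standard error 0.24).

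**Figure D3:**
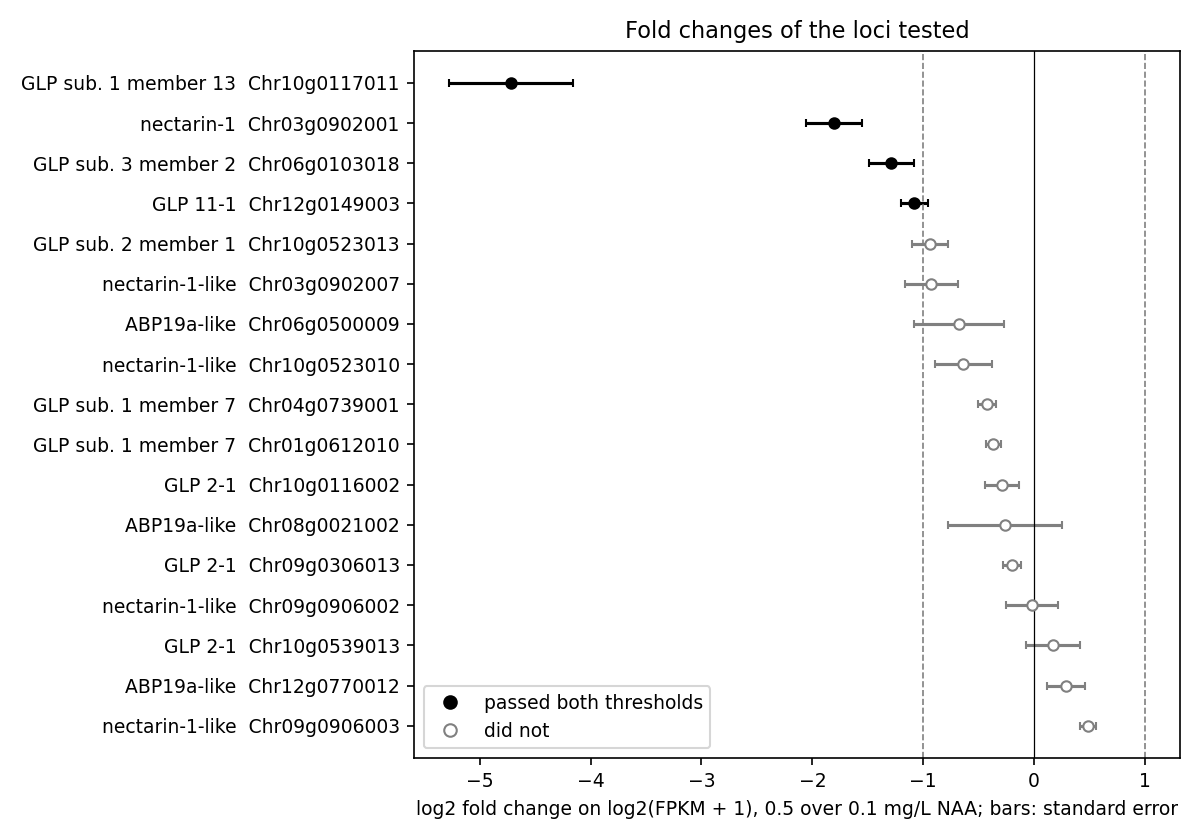
Log2 fold change on log2(FPKM + 1), 0.5 over 0.1 mg/L NAA, with its standard error for the 17 members tested; dashed lines mark a change of 1 in either direction. The 4 called members (filled) lie between -4.72 and -1.08, and the highest is the chromosome 9 nectarin-1-like locus at 0.49.

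The 11 members under the minimum had no value above 0.82 FPKM, and 5 of them were at 0 in 5 of the 6 libraries. All 0.5 mg/L libraries were at 0 for 4 of them and all 0.1 mg/L libraries for 2, and in none did the treatments separate without overlap. They were the 3 germin-like protein 2-3 loci, a germin-like protein 2-1 locus on chromosome 15, both subfamily 1 member 17 loci, a subfamily 1 member 20 locus on an unplaced scaffold, subfamily 2 member 1 on chromosome 9, subfamily 3 member 2 on chromosome 16, ABP19a-like on chromosome 19 and the nectarin-3 locus on chromosome 13. At such values no difference was detectable at this depth. The carbonic anhydrase nectarin-3 was listed at 0.11 FPKM in replicate 1 at 0.1 mg/L and at 0 elsewhere.

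By description, the summed level of subfamily 3 was 10.7 ± 3.58 FPKM at 0.5 mg/L and 27.0 ± 2.39 FPKM at 0.1 mg/L NAA, and that of germin-like protein 2-1 and 2-3 was 82.6 ± 7.33 and 95.6 ± 4.13 FPKM (SD, n = 3 each). The ABP19a-like sum was 63.6 ± 38.8 FPKM at 0.5 mg/L and 79.2 ± 0.406 FPKM at 0.1 mg/L NAA. The 28 members together had 570, 450 and 496 FPKM at 0.5 mg/L and 569, 577 and 562 FPKM at 0.1 mg/L NAA, so the family totals overlapped. Without the most abundant locus the other 27 summed to 227 ± 47.8 FPKM at 0.5 mg/L and 371 ± 3.18 FPKM at 0.1 mg/L NAA, and these did not overlap. These 27 include the member 13 locus, whose fall chose the family (means of 1.86 and 54.8 FPKM). As a description only, the totals overlapped while the make-up of the family differed.

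**Figure D4:**
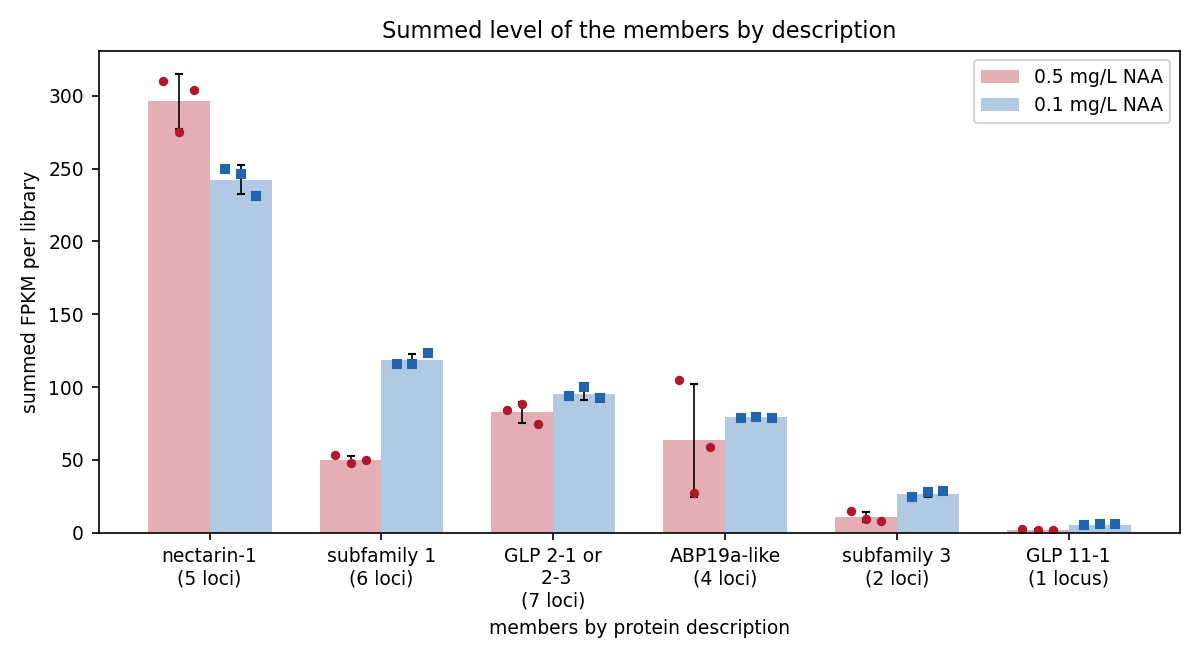
Summed FPKM of the members by protein description, with bars for the mean, error bars for the SD (n = 3 libraries) and a mark for each library, 0.5 mg/L NAA left of 0.1 mg/L NAA; subfamily 2 and nectarin-3 are left out and GLP stands for germin-like protein. Nectarin-1 stands at 296 against 242 FPKM, subfamily 1 at 50.1 against 118 FPKM, and the ABP19a-like marks at 0.5 mg/L NAA spread from 27.3 to 105 FPKM.

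The members lie on 12 chromosomes and 1 scaffold. Chromosome 9 held the most RNA of the family, with 352 ± 15.3 FPKM at 0.5 mg/L and 281 ± 9.50 FPKM at 0.1 mg/L NAA over 5 loci. Chromosome 10, with 6 loci, had 17.4 ± 3.78 FPKM at 0.5 mg/L and 74.8 ± 0.887 FPKM at 0.1 mg/L NAA, and chromosome 3, with 2 loci, 11.9 ± 4.81 and 37.6 ± 2.36 FPKM (SD, n = 3 each). Most of the chromosome 10 difference came from the member 13 locus, whose fall chose the family (means of 1.86 and 54.8 FPKM). Of the 28 loci, 17 had another member within 2 rows of the table, in 7 runs on chromosomes 1, 3, 4, 9 and 10. The chromosome 9 run with the nectarin-1-like pair reached from a nearly silent locus to the most abundant of the family, while both loci of the chromosome 10 pair with nectarin-1-like were weak. Of the 28 members, 21 carried gene ontology terms, and the cell wall was among them in all 21, where 4.34% of all loci with terms carried it. The 4 nectarin-1 loci of chromosomes 3 and 9 carried regulation of root development, and the ABP19a-like loci of chromosomes 12 and 19 the apoplast, the fluid space of the wall.

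Genes around the germin-like proteins by role were counted from lists of words in the descriptions. For comparison, 2.62% of all loci tested were called lower and 3.24% higher. On the adjusted p alone 20.2% of all loci tested were lower and 21.7% higher. Of 12 respiratory burst oxidase loci tested, enzymes that make superoxide outside the cell, 2 were called higher and 0 lower, with a median log2 fold change of 0.54. On the adjusted p alone 5 were higher and 0 lower. Some uncalled loci above that median were high only in replicate 2 at 0.5 mg/L NAA, with up to 8.31 FPKM there. The called ones had 106 and 49.9 FPKM as means at 0.5 and 0.1 mg/L NAA on chromosome 18 (Niben261Chr18g1469031, log2 fold change 1.06, adjusted p = 0.00060 from limma) and 11.1 and 3.02 FPKM on chromosome 3 (Niben261Chr03g0051008, 1.53, adjusted p = 0.0021 from limma). The chromosome 18 locus was at 0.94 and not called with replicate 3 at 0.5 mg/L left out. Of 17 superoxide dismutase loci, 2 of them copper chaperones, 0 were called higher and 1 lower (Niben261Chr14g0280004, an iron superoxide dismutase, with 1.26 and 3.36 FPKM at 0.5 and 0.1 mg/L NAA, log2 fold change -1.01, adjusted p = 0.017 from limma). That call was lost after rescaling to the same total (-0.86) and in 4 of the 6 fits with a library left out (replicates 1 and 3 at 0.5 mg/L, replicates 1 and 2 at 0.1 mg/L NAA), and over all alternatives the adjusted p from limma ran from 0.0017 to 0.062. On the adjusted p alone 9 superoxide dismutase loci were lower, and 2 after the libraries were rescaled to the same total. Summed, the list had 1739 to 1808 FPKM at 0.5 mg/L and 2046 to 2085 FPKM at 0.1 mg/L NAA. The FPKM totals over all loci, given above, were lower at 0.5 mg/L NAA too. Rescaling to the same total took the median log2 fold change of the list from -0.26 to -0.07.

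Enzymes that remove hydrogen peroxide gave no calls: 0 of 6 catalase and 0 of 13 ascorbate peroxidase loci passed both thresholds in limma. On the adjusted p alone, where 20.2% of all loci were lower and 21.7% higher, 1 catalase was higher and 1 lower. On that threshold 2 ascorbate peroxidases were lower. These counts moved with the scaling, to 3 catalases higher and 0 lower after rescaling to the same total, and to 3 ascorbate peroxidases higher and 3 lower under quantile normalization. The median log2 fold changes were 0.22 for catalase and -0.18 for ascorbate peroxidase, and quantile normalization turned that of ascorbate peroxidase to 0.01. Summed, catalase had 1115, 1038 and 1572 FPKM in replicates 1, 2 and 3 at 0.5 mg/L and 904 to 955 FPKM at 0.1 mg/L NAA. Ascorbate peroxidase summed to 1693 to 1765 FPKM at 0.5 mg/L and 1843 to 1869 FPKM at 0.1 mg/L NAA. Of the oxalate enzymes 1 locus, an oxalate--CoA ligase (Niben261Chr15g0910017), was found, with means of 1.46 and 0.19 FPKM at 0.5 and 0.1 mg/L NAA and a log2 fold change of 1.03. It entered the fit only through the 0.5 mg/L libraries, where it is high, so no test is given for it. It was left out with a minimum mean of 1 FPKM, and its log2 fold change was under 1 with replicate 3 at 0.5 mg/L (0.91) or replicate 1 at 0.1 mg/L NAA (0.98) left out. Of 21 other cupin and auxin-binding loci, mostly seed storage proteins, 3 were tested and 0 called.

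Of 35 tested loci with the word extensin in their description, 10 were called higher and 1 lower, with a median log2 fold change of 0.13. On the adjusted p alone 12 were higher and 4 lower, where 21.7% of all loci were higher and 20.2% lower. The list mixes extensins, wall glycoproteins that peroxidases can cross-link with hydrogen peroxide, with leucine-rich repeat extensin-like proteins. Both kinds are among the loci called higher. The largest changes were those of a pair of extensin-2-like loci, with 442 and 46.3 FPKM as means at 0.5 and 0.1 mg/L NAA on chromosome 9 (Niben261Chr09g0002013, log2 fold change 3.19, adjusted p = 8.1e-05 from limma) and 428 and 56.5 FPKM on chromosome 10 (Niben261Chr10g0062001, 2.86, adjusted p = 0.00013 from limma). The loci of this pair match the same protein best, so their reads may have been shared. The locus called lower was a pistil-specific extensin-like protein on chromosome 16 (Niben261Chr16g0286002), with 156 and 457 FPKM. Its log2 fold change was -1.58 (adjusted p = 0.00089 from limma). A locus of the same description on chromosome 7 (Niben261Chr07g1319014) passed neither threshold, with 27.3 and 16.7 FPKM and a log2 fold change of 0.60.

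**Figure D5:**
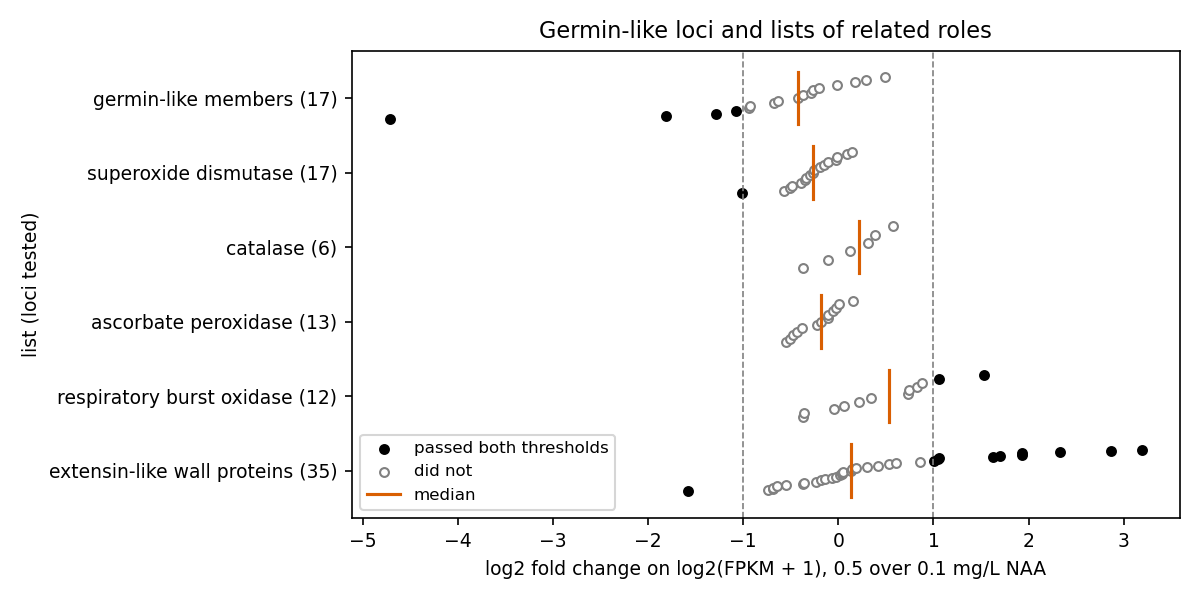
Log2 fold change on log2(FPKM + 1), 0.5 over 0.1 mg/L NAA, of each locus tested in the germin-like family and 5 lists of related roles; filled marks passed both thresholds, bars are medians and dashed lines mark a change of 1 in either direction. Called germin-like members lie on the lower side only (4 of 17), with the locus that chose the family among them. Called respiratory burst oxidases (2 of 12) and 10 of the 11 called extensin-like loci lie on the higher side. Over all loci tested, 2.62% were called lower and 3.24% higher.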

How the data were processed

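RNA-seq of explants after 2 weeks with 0.5 or 0.1 mg/L NAA gave 3 libraries for each treatment, grouped by the sample labels. The authors deposited FPKM values, rounded to 2 decimals. The aligner and counter of these libraries are not given in the sources used here. Read counts were not used, so depth is known only relatively, from the steps of low values.

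Loci with a mean of at least 0.5 FPKM were tested on log2(FPKM + 1) with limma 3.58.1 in R 4.3.3 (mean-variance trend, Benjamini-Hochberg adjustment over 32443 loci). A locus was called with |log2FC| at or above 1 and an adjusted p below 0.05, thresholds the study uses. The pseudocount makes fold changes of weak loci smaller than the ratio of their FPKM. The fit was run on simulated libraries with known changes, set in loci with a mean of at least 10 FPKM at 0.1 mg/L NAA. Both treatments were given the same spread there. Changes in weak loci, or under the wider spread at 0.5 mg/L NAA, were thus not checked. Members, lists and tests were chosen with earlier results of these data known. Named members are the called ones, the 10 most abundant and those nearest a threshold; the other expressed members were named after their values were seen. In each related list at most 2 called loci a direction are named, by the size of the change. Near-identical copies may share reads, and so their values are uncertain. There were 17 alternatives, among them other pseudocounts, filters, scalings and thresholds, a replicate block and each library left out. The plots were made in Python 3.11.15 (matplotlib 3.10.9).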

Additional observations from a re-analysis of the deposited data

How the results depend on the processing

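The 4 called members kept a lower level in all 17 alternatives in which they were fitted, and the number of members called stayed between 3 and 6 except where the threshold itself was moved: it was 9 (8 lower, 1 higher) with no fold threshold and 2 with a log2 fold threshold of 1.5. The number over all loci was 1902, and it was 2955 and 2945 with pseudocounts of 0.1 and 0.01, 13605 with no fold threshold and 611 with the threshold of 1.5. The related lists had 15 called loci, the oxalate--CoA ligase locus among them, 35 with no fold threshold and 9 with the threshold of 1.5. The subfamily 1 member 13 locus had a log2 fold change of -6.27 with a pseudocount of 0.01. Rescaling the libraries to the same total (TPM) moved the median of all loci to 0.19 from 0.02 on the log2 scale and the median of the members to -0.24. It gave 2159 loci called, 1640 higher and 519 lower. It took the ratio of summed levels, 0.5 over 0.1 mg/L NAA, to 0.987 for germin-like protein 2-1 and 2-3 (0.864 as deposited), to 1.40 for nectarin-1 (1.22) and to 0.484 for subfamily 1 (0.423). Under it 2 superoxide dismutases were lower on the p threshold in place of 9.

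Without each library in turn, members called ranged from 4 to 6, the median of the members from -0.80 to -0.37, members without overlap from 10 to 13, related loci called from 10 to 14 and loci called from 1558 to 2372. The log2 fold change of the subfamily 1 member 13 locus ranged from -5.47 to -4.33. The ABP19a-like locus Niben261Chr08g0021002, not called, ranged from -0.86 to 0.34 and changed sign with replicate 2 at 0.5 mg/L left out. Whether the replicate numbers pair the libraries is not stated. Deviations of same-numbered libraries correlated with r of only 0.02, 0.01 and 0.01 across loci, though each correlated best with its own number. Such small values do not settle the pairing. With the replicate block 4 members, 15 related loci and 1907 of all loci were called, and the member 13 locus kept -4.72. The main limits are 3 libraries a treatment, a wider spread at 0.5 mg/L NAA, where leaving out replicate 1 adds 2 calls (nectarin-1-like on chromosome 3, also called with pseudocounts of 0.1 and 0.01 and under quantile normalization, and ABP19a-like on chromosome 6), and weak loci whose depth is unknown.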
